A study of Canis lupus familiaris with 2 samples.

Results

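The 49 genes described here encode the actomyosin cytoskeleton and its regulators. They were taken by gene symbol from the FPKM values of 2 cultures of MDCK cells, and all 49 symbols were among the 23510 features listed. MDCK, a canine kidney cell line in long use, forms a sheet of columnar epithelium on a permeable support. The 2-cm culture had medium 2 cm high, described in the labels both as no pressure and as 2 cmH2O, and the 50-cm culture had a column of medium 50 cm high, which put a static pressure of 50 cmH2O on the cells. Both were plated at the same density on culture inserts in EMEM with serum and labelled as 3 days, and the labels name no drug or transfection for either. The comparison asks how the RNA of the actin machinery differed between the cultures. Each group held 1 culture of 1 cell line, so the values have no replicates, none of the differences could be tested, and pressure, cell number, culture and library cannot be told apart. Where a pair of FPKM values is given, the first is that of the 2-cm culture and the second that of the 50-cm culture, and a ratio is the second over the first.

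Actin filaments are built from monomers with the help of profilin and formins, and are severed by cofilin. Bundles of these filaments are drawn together by non-muscle myosin II, whose motor heavy chains carry essential and regulatory light chains, and tropomyosins coat the filaments and set access to them. Focal adhesions tie the bundles to the matrix, ERM proteins tie them to the membrane, and RHOA acts through the ROCK kinases and the formin DIAPH1 to drive both assembly and contraction. Free actin monomers hold the MRTF cofactors (listed under the older symbols MKL1 and MKL2) out of the nucleus, and when they are released they activate SRF, a transcription factor of many cytoskeletal genes.

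The cells carried epithelial RNA in both cultures. All 9 epithelial markers were above 1 FPKM in both cultures, 5 of them higher in the 50-cm culture and 4 lower, none past 1.5-fold. E-cadherin (CDH1) had 211 FPKM in the 2-cm culture and 229 FPKM in the 50-cm culture, and EPCAM had 253 and 216 FPKM. The summed level of the 9 was 3804 and 3641 FPKM. Of 10 fibroblast and mesenchymal markers, vimentin (VIM) alone was above 1 FPKM, at 1802 and 2380 FPKM, and COL3A1, DCN, LUM and THY1 were listed at 0 in both. Of 6 smooth muscle markers, SMTN alone was above 1 FPKM in both, and SYNPO2 and ACTG2 were at 0. The 5 endothelial markers summed to 0.474 and 0.277 FPKM, with PECAM1 and TEK at 0. Of the 4 leukocyte markers listed, CD14 alone was above 1 FPKM, at 4.82 and 3.77 FPKM, and PTPRC and CD3E were at 0. Of 9 striated muscle markers, ACTA1 and TNNI2 were above 1 FPKM and 5 were at 0. The part of VIM, ACTA1 and TNNI2, which differed between the cultures, in the values below was not tested. In RNA from whole cultures, fewer cells of a type and less RNA per cell cannot be told apart.

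Most of the members, though not all, were abundant RNAs in these cells. Of the 49 members, 41 (83.7%) exceeded 1 FPKM in both cultures, against 47% of all features. Their median level was 103 FPKM in the 2-cm culture and 117 FPKM in the 50-cm culture, against 16.2 and 16.3 FPKM over the 11057 features that passed the same minimum. When those features were split into 10 equal groups by mean log2 FPKM, 22 of the 41 members lay in the highest group and 29 in the highest 2. Together the 49 genes took 1.78% of all FPKM in the 2-cm culture and 1.94% in the 50-cm culture. The other 8 members lay at or under 1 FPKM, and most of them are known from smooth muscle: ACTA2, MYLK, TPM2, CNN1, TAGLN and CALD1, joined by CNN2 and FHL1.

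**Figure D1:**
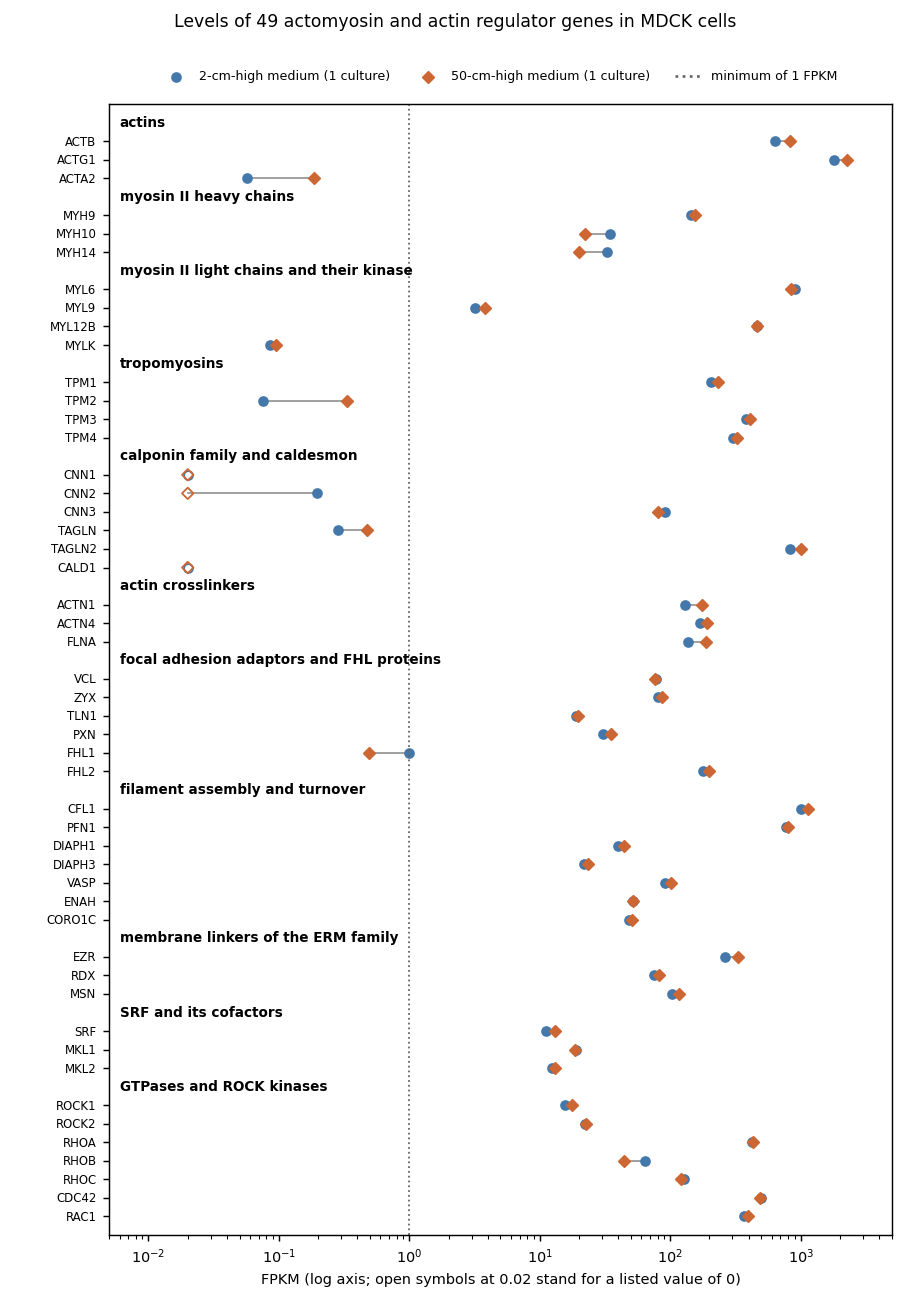
FPKM values of the 49 members on a log axis, by role, with a circle for the culture in the 2-cm culture and a diamond for the 50-cm culture (1 culture each, no error bars possible). The 41 members to the right of the dotted line passed 1 FPKM in both cultures, and 12 members lay above 300 FPKM in both.

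The differences between the cultures were small for most members. None of the 41 differed by more than 2-fold, where 1.67% of all 11057 features did. Past 1.5-fold lay 2 members (4.88%), MYH10 and MYH14, both lower in the 50-cm culture, where 7.19% of all features passed 1.5-fold in either direction and 5.06% in the lower direction. No member was more than 1.5-fold higher, as 2.13% of all features were. Most members were abundant, and of the 6915 features above 10 FPKM in both cultures, a background chosen after the values were seen, 3.01% passed 1.5-fold in either direction, as did the same 2 of the 40 members above that level. Within 1.1-fold lay 19 of the 41 (46.3%), against 42.6% of all features and 49.8% of those above 10 FPKM in both.

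The members leaned to higher values in the 50-cm culture by a small step. Of the 41, 31 (75.6%) had a ratio above 1, as did 52.6% of all features, and their median log2 ratio was 0.10 against 0.01. Abundant features as a whole leaned the same way. Over the features above 10 FPKM in both cultures, 60.2% were higher, 1.61% were more than 1.5-fold lower and the median log2 ratio was 0.05. Of the 40 members above 10 FPKM, 30 were higher, 2 (MYH10 and MYH14) were more than 1.5-fold lower and the median was 0.10. After the log2 ratios were recentred on their median, 29 of the 41 members were higher, with ENAH and ROCK2 turning to lower. Under quantile normalization 30 were higher and the median was 0.06.

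**Figure D2:**
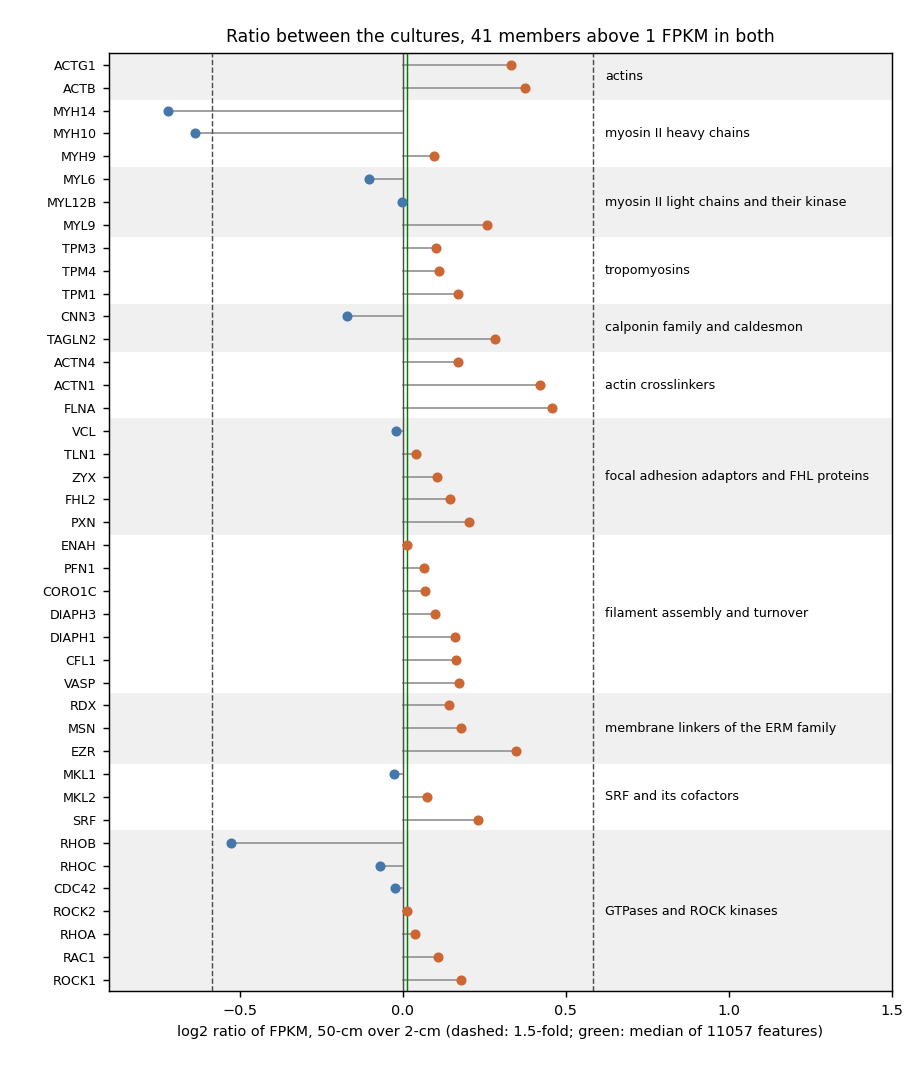
Log2 ratio of FPKM, 50-cm over 2-cm, for the 41 members above 1 FPKM in both cultures, by role, with dashed lines at 1.5-fold and a green line at the median of all features. MYH14 (-0.72) and MYH10 (-0.64) lie past the lower line, RHOB (-0.53) lies just inside it, and FLNA (0.46), ACTN1 (0.42) and ACTB (0.37) have the highest values.

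**Figure D3:**
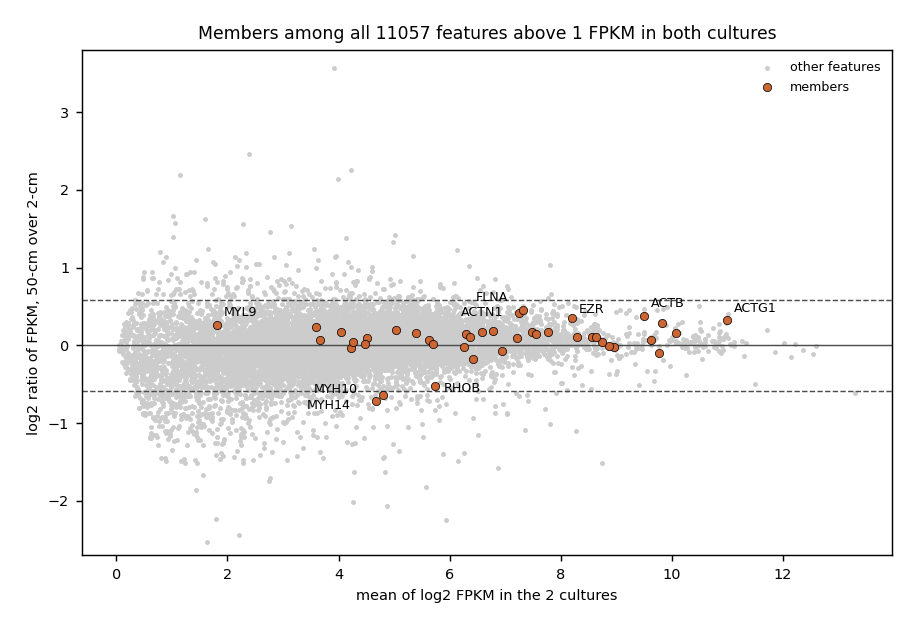
Log2 ratio of FPKM, 50-cm over 2-cm, against the mean of the log2 FPKM values, with all features above 1 FPKM in both cultures in grey and the members in orange. The spread of the grey points narrows with level, from an SD of 0.46 in the lowest of 10 equal groups by level to 0.24 in the highest, and most members lie in the narrow part.

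Both cytoplasmic actin genes were higher in the 50-cm culture by a similar factor. ACTG1, which encodes gamma-actin and was the most abundant member, had 1807 FPKM in the 2-cm culture and 2274 FPKM in the 50-cm culture, a ratio of 1.26. ACTB, which encodes beta-actin, had 636 and 824 FPKM, a ratio of 1.30. Among all features ACTG1 stood at rank 28 by level in the 2-cm culture and at rank 15 in the 50-cm culture. A larger ratio than that of ACTB was found in 7.64% of the 11057 features, and a larger ratio than that of ACTG1 in 9.99%. The pair summed to 2443 and 3098 FPKM, and its makeup was similar, since ACTB supplied 26.0% in the 2-cm culture and 26.6% in the 50-cm culture. Quantile normalization lowered the log2 ratio of ACTG1 from 0.33 to 0.25 and that of ACTB from 0.37 to 0.32. ACTA2, the smooth muscle alpha-actin, was near the floor at 0.0569 and 0.187 FPKM. The skeletal alpha-actin gene ACTA1, a striated muscle marker and not a member, was listed at 21.5 and 29.1 FPKM, a ratio of 1.35. The actin genes are nearly identical in coding sequence, and how reads shared between them were divided is not stated, so the ACTA1 level and the split between the cytoplasmic actins are uncertain.

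The non-muscle myosin II heavy chains did not share a direction. MYH9, the heavy chain of myosin IIA, had 144 FPKM in the 2-cm culture and 154 FPKM in the 50-cm culture, a ratio of 1.07. MYH10, that of myosin IIB, had 34.6 and 22.2 FPKM, a ratio of 0.643. MYH14, that of myosin IIC, had 32.7 and 19.8 FPKM, a ratio of 0.607. Of the 41 members above 1 FPKM in both cultures, the minor heavy chains were the 2 furthest from a ratio of 1, while the major one differed little. A ratio smaller than that of MYH10 was found in 4.11% of the 11057 features and one smaller than that of MYH14 in 3.12%, and among features above 10 FPKM in both cultures the shares were 1.27% and 0.853%. MYH9 was 4.18 times the level of MYH10 in the 2-cm culture and 6.95 times in the 50-cm culture, and its excess over MYH14 went from 4.42 to 7.77 times. MYH9 made up 68.2% of the summed heavy chain FPKM in the 2-cm culture and 78.6% in the 50-cm culture. The shares of MYH10 were 16.3% and 11.3%, and those of MYH14 15.5% and 10.1%. The sum itself was 212 FPKM in the 2-cm culture and 196 FPKM in the 50-cm culture. In RefSeq's annotation of another dog assembly (UU_Cfam_GSD_1.0) the MYH10 gene overlaps NDEL1, which had the opposite direction, with 14.4 and 18.3 FPKM. MYH14 overlaps no other protein-coding gene there.

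**Figure D4:**
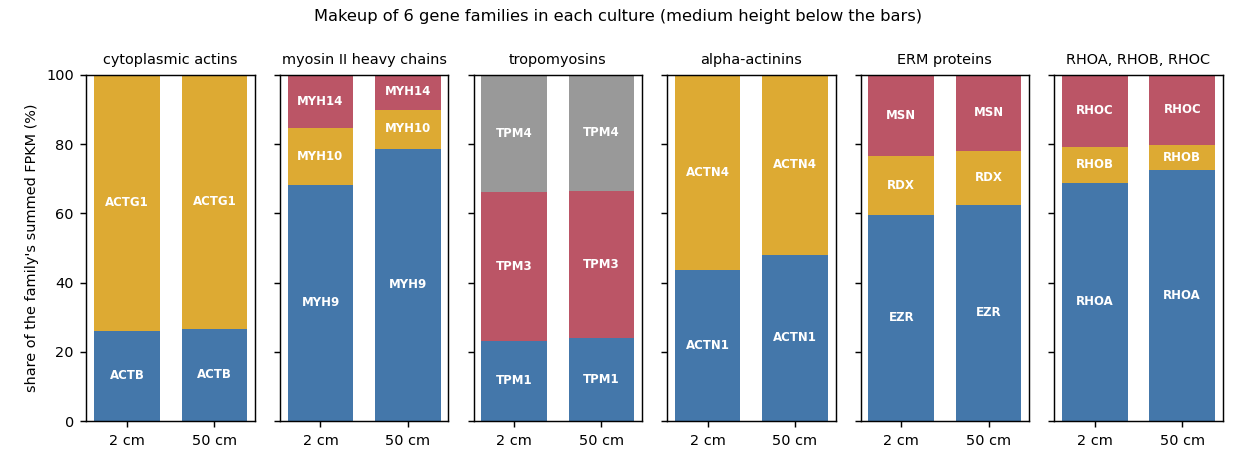
Share of each gene in the summed FPKM of its family, in percent, for 6 families in the culture in the 2-cm culture and the 50-cm culture (1 culture each). The myosin II heavy chains show the widest shift, 10.4 points toward MYH9, whereas the cytoplasmic actins and the tropomyosins kept their makeup within 1 point.

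Among the myosin II light chains, MYL6 and MYL12B were abundant and nearly level. MYL6, the essential light chain of non-muscle cells, had 908 FPKM in the 2-cm culture and 844 FPKM in the 50-cm culture, a ratio of 0.930. MYL12B, a regulatory light chain, had 465.3 and 464.7 FPKM, a ratio of 0.999. MYL9, the regulatory light chain that smooth muscle favours, was low at 3.21 and 3.83 FPKM, a ratio of 1.20. MYL6 thus exceeded MYL9 by 283 and 220 times. The sign for MYL12B turned under quantile normalization, and its near-identical copy MYL12A had 402 and 423 FPKM. How any reads shared between MYL12B and MYL12A were divided is not stated, so the level and ratio of each are uncertain. MYL6B, which overlaps MYL6 in the RefSeq annotation and encodes a related essential light chain, was lower in the 50-cm culture, with 21.8 and 12.0 FPKM (ratio 0.551). MYLK, the kinase that phosphorylates the regulatory light chains, was listed at 0.0859 and 0.0943 FPKM. Of the genes for myosin phosphatase, which removes that phosphate, the targeting subunit PPP1R12A had 22.3 and 22.2 FPKM and the catalytic subunit PPP1CB had 260 and 250 FPKM.

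Tropomyosins came from 3 genes, and their proportions were alike in both cultures. TPM3 had 384 and 412 FPKM, TPM4 had 302 and 326 FPKM, and TPM1 had 207 and 233 FPKM in the 2-cm and 50-cm cultures, respectively. All 3 were slightly higher in the 50-cm culture, with ratios of 1.07, 1.08 and 1.13. So were 60.2% of features above 10 FPKM in both cultures. TPM3 supplied 43.0% and 42.4% of the summed tropomyosin FPKM, TPM4 33.9% and 33.6%, and TPM1 23.2% and 23.9%. TPM2, the fourth gene, was at 0.0754 and 0.331 FPKM. Each of these genes yields several isoforms, which the gene-level values do not separate.

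Of the 6 genes of the calponin family and caldesmon, 2 were above 1 FPKM in both cultures, TAGLN2 and CNN3, both forms found outside muscle. TAGLN2 (transgelin 2), an actin-binding protein of non-muscle cells, had 822 FPKM in the 2-cm culture and 999.6 FPKM in the 50-cm culture, a ratio of 1.22. Its smooth muscle relative TAGLN had 0.286 and 0.471 FPKM. CNN3, the acidic calponin, was lower in the 50-cm culture, with 91.3 and 81.2 FPKM (ratio 0.889), and in the RefSeq annotation it overlaps SLC44A3, which had 10.8 and 6.63 FPKM. CNN2 was at 0.198 FPKM in the 2-cm culture and listed at 0 in the 50-cm culture. CNN1 and CALD1 (caldesmon) were listed at 0 in both. ATP5O, an ATP synthase gene, was also listed at 0 in both, so a listed 0 does not show that an RNA was lacking.

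The largest ratios among the 41 members were those of 2 filament crosslinkers. FLNA, which encodes filamin A and joins filaments into networks, had 136 FPKM in the 2-cm culture and 187 FPKM in the 50-cm culture, a ratio of 1.37. ACTN1, an alpha-actinin that bundles filaments in stress fibers and adhesions, had 131 and 175 FPKM, a ratio of 1.34. ACTN4, the other non-muscle alpha-actinin, had 170 and 191 FPKM, a ratio of 1.12. All 3 were higher under each scaling tried. As deposited, 60.2% of features above 10 FPKM in both cultures were higher. In the RefSeq annotation FLNA overlaps LOC119878133, and ACTN4 overlaps CAPN12, which had 0.636 and 0.603 FPKM. Larger ratios than that of FLNA occurred in 4.50% of all features, and than that of ACTN1 in 5.61%. ACTN1 supplied 43.5% of the alpha-actinin sum in the 2-cm culture and 47.9% in the 50-cm culture, so that ACTN4 exceeded it 1.30 times and 1.09 times, respectively. Among 5 other crosslinkers and bundlers above 1 FPKM in both cultures, none of them members, 4 had ratios below 1. Of all features, 47.4% did. None of the 5 passed 1.5-fold. Among the 4 were LIMA1 with 93.6 and 74.5 FPKM and the fimbrin PLS1 with 22.6 and 17.8 FPKM.

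The 5 focal adhesion members above 1 FPKM in both cultures differed little. VCL, which encodes vinculin, had 77.4 and 76.3 FPKM (ratio 0.986), and TLN1, which encodes the integrin activator talin 1, had 18.98 and 19.53 FPKM (ratio 1.03). ZYX, which encodes the tension-sensitive adaptor zyxin, had 80.1 and 86.0 FPKM (ratio 1.07). PXN, which encodes the scaffold paxillin, had the largest ratio of the group, 1.15, with 30.4 and 35.1 FPKM. These values place 4 of the 5 measured genes of this group above a ratio of 1. Of all features above 10 FPKM in both cultures, 60.2% were above 1. The fourth gene is FHL2, a LIM-only protein, with 179 and 197 FPKM (ratio 1.11). Its relative FHL1 was at 0.997 FPKM in the 2-cm culture, just under the minimum, and at 0.491 FPKM in the 50-cm culture. The median log2 ratio of the group was 0.10.

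As deposited, all 7 genes of filament assembly and turnover had ratios above 1, and none exceeded 1.13. Of all features above 10 FPKM in both cultures, 60.2% had ratios above 1. CFL1, the filament-severing cofilin, had 1014 FPKM in the 2-cm culture and 1135 FPKM in the 50-cm culture (ratio 1.12), and PFN1, the monomer-binding profilin, had 769 and 805 FPKM (ratio 1.05). VASP, a filament elongation factor, had 90.6 and 102 FPKM (ratio 1.13), and its relative ENAH had 51.7 and 52.2 FPKM (ratio 1.01). The RNA of DIAPH1, a formin that RHOA activates, was at 39.6 and 44.2 FPKM (ratio 1.12). DIAPH3 was at 21.995 and 23.569 FPKM (ratio 1.07), and the filament-binding coronin CORO1C at 48.5 and 50.8 FPKM (ratio 1.05). Under quantile normalization the ratio of PFN1 was 1 and that of ENAH was below 1, as it was also after recentring. The group's log2 ratios ran from 0.01 to 0.17.

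Ezrin led the membrane linkers. EZR, the ERM protein of microvilli, had 261 FPKM in the 2-cm culture and 332 FPKM in the 50-cm culture, a ratio of 1.27. MSN (moesin) had 103 and 117 FPKM (ratio 1.13), and RDX (radixin) had 74.95 and 82.69 FPKM (ratio 1.103). All 3 were higher in the 50-cm culture, as were 60.2% of features above 10 FPKM in both cultures. A larger ratio than that of EZR was found in 995 of the 11057 features. EZR made up 59.4% of the ERM sum in the 2-cm culture and 62.4% in the 50-cm culture.

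SRF and its cofactors were the least abundant role group measured above the minimum and differed little. SRF had 11.2 FPKM in the 2-cm culture and 13.1 FPKM in the 50-cm culture, a ratio of 1.17. MKL1 (MRTF-A) had 18.9 and 18.5 FPKM (ratio 0.981), and MKL2 (MRTF-B) had 12.38 and 13.03 FPKM (ratio 1.05). A list of 13 known SRF targets outside the members, which is not a full set, was also read. Of these, 12 were listed and 10 were above 1 FPKM in both cultures. Of these 10, 7 were higher in the 50-cm culture and 3 lower, and their median log2 ratio was 0.18. Over all features, 52.6% were higher and the median was 0.01. More than 1.5-fold higher were 3 and more than 1.5-fold lower was 1, where 2.13% and 5.06% of all features were. The list was chosen with earlier results of these data known, so the shares describe the list only, and enrichment was not tested. ANKRD1, a muscle ankyrin repeat protein, had 5.20 and 15.0 FPKM (ratio 2.89), FOSL1, an AP-1 subunit, had 10.4 and 22.8 FPKM (log2 ratio 1.14), and CYR61, a matricellular protein, had 103 and 171 FPKM (ratio 1.66). EGR1, an immediate early transcription factor, went the other way with 14.5 and 7.33 FPKM (ratio 0.505). ANKRD1 and CYR61 are also known targets of YAP.

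Among the 7 GTPase and ROCK kinase genes RHOB stood apart. RHOB, a short-lived endosomal GTPase, had 63.6 FPKM in the 2-cm culture and 44.2 FPKM in the 50-cm culture, a ratio of 0.695. RHOA, the main driver of stress fibers, had 422 and 433 FPKM (ratio 1.03), and RHOC had 127 and 121 FPKM (ratio 0.953). A smaller ratio than that of RHOB was found in 6.21% of all features and in 2.05% of those above 10 FPKM in both cultures. RHOB was just inside 1.5-fold as deposited and passed it under quantile normalization, with a log2 ratio of -0.59 in place of -0.53. RHOA exceeded RHOB 6.63 times in the 2-cm culture and 9.80 times in the 50-cm culture. CDC42, which directs filopodia and polarity, had 499 and 491 FPKM (ratio 0.983), a direction that turned under quantile normalization, and RAC1, which directs lamellipodia, had 366 and 395 FPKM (ratio 1.08). The kinases that carry the RHOA signal to myosin were nearly level, with 15.6 and 17.6 FPKM for ROCK1 (ratio 1.13) and 22.2 and 22.4 FPKM for ROCK2 (ratio 1.01, below 1 under both rescalings).

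At the lowest levels the ratios were those of a few reads. Of 574 features listed in both cultures at values above 0 but under 0.1 FPKM, 219 shared a ratio of 1.098 to within 0.2%, the worth of 1 read in the 50-cm culture relative to the 2-cm culture. The smallest whole read numbers that gave the ratio of ACTA2 to within 0.05% were 3 in the 50-cm culture and 1 in the 2-cm culture. For TPM2 they were 4 and 1, for TAGLN 3 and 2, and for MYLK 1 and 1. Multiples of these numbers give the same ratios. The large ratios of ACTA2 (3.29) and TPM2 (4.39) therefore can rest on a difference of a few reads, and no direction is given for these genes.

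The wider actin machinery was described by 106 further genes in 7 lists, of which 98 were listed. These lists too were chosen with earlier results of these data known. Genes past 1.5-fold lay mostly in the lists of SRF targets and focal adhesion genes. Of the 81 above 1 FPKM in both cultures, 5 were more than 1.5-fold higher and 3 more than 1.5-fold lower. Of all features, 2.13% and 5.06% were. Together the 8 made up 9.88%, against 7.19% of all features. The median log2 ratio was 0.02. Higher were 48 of the 81 (59.3%), against 52.6% of all features and 60.2% of those above 10 FPKM in both cultures. None of the 12 Arp2/3 and activator genes, 6 other formins, 19 capping, severing and monomer-binding genes and 5 other crosslinkers passed 1.5-fold. In the Arp2/3 list, whose complex nucleates branched filaments, the extremes were ARPC1A (162 and 183 FPKM) and ACTR3 (6.30 and 4.57 FPKM). The related gene ACTR3B, which is not in the list, was listed at a far higher level than ACTR3, with a mean log2 FPKM of 8.25 and a log2 ratio of 0.16. How any reads shared between these genes were divided is not stated, so the level and ratio of ACTR3 are uncertain. DAAM1 (5.58 and 6.77 FPKM) and DIAPH2 (11.7 and 9.36 FPKM) were the extremes of the formins, and CFL2 (38.0 and 45.8 FPKM) and CAP2 (3.41 and 2.70 FPKM) those of the capping and severing list. SYNPO (3.63 and 4.35 FPKM) and PLS1 were the extremes of the crosslinkers.

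Beside the 4 SRF targets above, the genes past 1.5-fold were 3 of 20 further focal adhesion genes and MYL6B, where 7.19% of all features passed 1.5-fold. Of the focal adhesion genes, TNS4, a tensin without the actin-binding part, had 13.1 FPKM in the 2-cm culture and 26.4 FPKM in the 50-cm culture (ratio 2.01). PARVB, a parvin of the ILK complex, had 4.05 and 6.88 FPKM (ratio 1.70), and LIMS2, another partner of ILK, had 2.48 and 1.60 FPKM (ratio 0.646). ILK itself was nearly level, at 49.6 and 51.4 FPKM. Among the other myosin II subunits and phosphatase genes, MYL6B was the 1 of 9 past 1.5-fold.

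**Figure D5:**
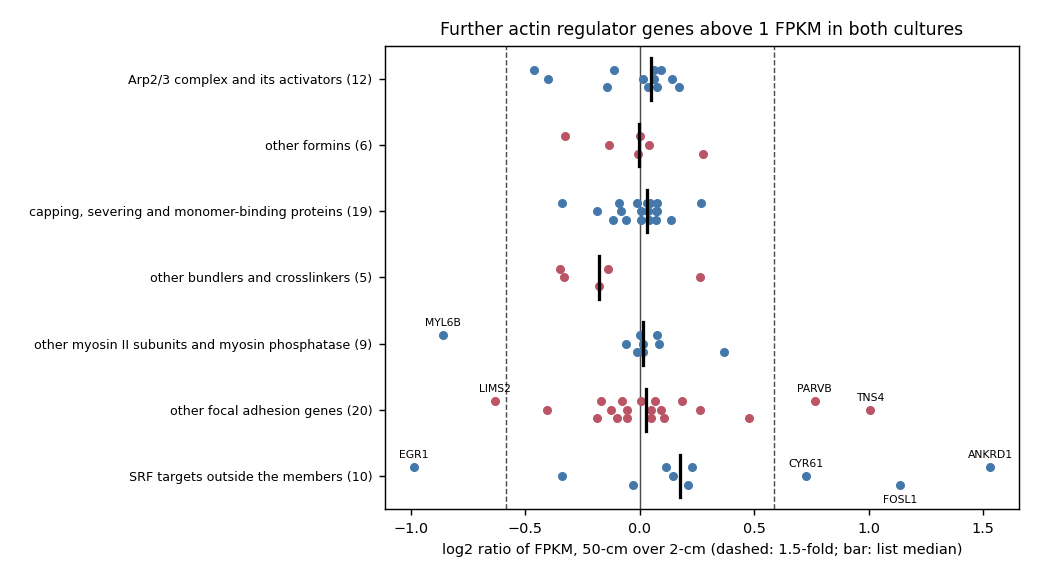
Log2 ratio of FPKM, 50-cm over 2-cm, for further actin regulator genes above 1 FPKM in both cultures, by list, with the number of genes in parentheses, a black bar at each list's median and dashed lines at 1.5-fold. Named points passed 1.5-fold, and ANKRD1 (1.53), FOSL1 (1.14) and TNS4 (1.01) have the highest values.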

How the data were processed

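Total RNA of each MDCK culture was made into a stranded mRNA library and sequenced single-end by the authors. Per the paper and the submitters' processing notes, reads were mapped to CanFam3.1 with TopHat2 2.0.13, Bowtie2 2.2.3 and SAMtools 0.1.19, and FPKM values (fragments per kilobase of transcript, scaled to library size) were calculated by the authors with Cuffnorm 2.2.1. Which gene annotation and scaling option were used is not given in the sources used here. Read totals are unknown, so no interval for a value was computed.

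Ratios of 50-cm over 2-cm FPKM were taken from the deposited values with no pseudocount, for those features that exceeded 1 FPKM in each culture. The 2-fold limit followed the study, and 1.5-fold was added. With 1 sample per group no test was made. Medians and counts over a list stand beside those of all features tested. The 49 members and the further lists were chosen with earlier results of these data known. Named genes were all members and, in each further list, the genes past 1.5-fold or else the extreme ones, and MYL12A, PPP1R12A, PPP1CB, LIMA1, ILK, TMSB10, TMSB4X, ACTR3B, ATP5O and genes overlapping members were added after their values were seen. Symbols were matched to RefSeq's UU_Cfam_GSD_1.0 gene table, 47 members directly and 2 (MKL1, MKL2) under their current names, and 7 members overlapped another protein-coding gene there. Some further regulator genes are not reported here. Positions in the RefSeq table served only to find overlapping genes, and these overlaps may not hold in CanFam3.1 because the assemblies differ. Whether the authors counted by strand is not stated, so reads of overlapping genes cannot be told apart. The alternatives were other FPKM minima, pseudocounts of 0.1 and 1, recentring on the median, and quantile normalization. Scripts were tested on simulated data. Calculations used numpy 2.4.6 and pandas 2.3.3 under Python 3.11.15, with matplotlib 3.10.9 for plots.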

Additional observations from a re-analysis of the deposited data

How the results depend on the processing

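No member differed by more than 2-fold above 1 FPKM in both cultures, but 1 did (FHL1) at a minimum of 0.1 FPKM and 3 did (FHL1, ACTA2 and TPM2) at any value above 0. Past 1.5-fold, the count of 2 became 4 and 6 under those minima, which let in FHL1 and TAGLN, and then also ACTA2 and TPM2, while the share of all features past 1.5-fold became 14.3% and 18.0%. The count stayed at 2 with a minimum of 5 FPKM or of 1 FPKM in at least one culture, with either pseudocount and after recentring, and was 3 under quantile normalization, which added RHOB. The median log2 ratio of the members ran from 0.06 (quantile normalization) to 0.11 (any value above 0). MYH10 and MYH14 stayed past 1.5-fold in all of these settings, but a changed minimum cannot alter the ratio of a gene that passes it. Recentring shifted every log2 ratio by the same 0.015. Only the pseudocounts and quantile normalization could shift single genes by different amounts. For single members, a shift smaller than the local spread (the scaled median absolute deviation over the 500 neighbours in level, 0.14 to 0.40 on the log2 scale) was taken as no move, and none moved further. The median of the calponin group went from 0.06 to 0.28 when TAGLN was let in by a minimum of 0.1 FPKM or of any value above 0. Chosen after seeing the data, the restriction to features above 10 FPKM left 2 members past 1.5-fold, and leaving out MYH10 and MYH14 gave a member median of 0.11. No paired analysis was possible because each group holds 1 culture and the labels carry no replicate numbers. For the same reason no replicate could be left out. The planned search of promoters for motifs and the protein identities were not run, as no sequences were used here.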

Other observations

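Thymosin TMSB10, an actin monomer-binding peptide, was at 6192 and 5710 FPKM, above every member, and its relative TMSB4X was at 49.9 and 52.7 FPKM. TNNI2, the fast skeletal troponin I gene, was at 14.0 FPKM in the 2-cm culture and 5.04 FPKM in the 50-cm culture (log2 ratio -1.47), while the myosin genes MYH1 and MYH2 were listed at 0 in both cultures.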
